A study of Rattus norvegicus with 6 samples.

Results

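The angiopoietin and TIE receptor axis was followed through 5 genes, the ligands Angpt1 and Angpt2, the receptors Tek (which encodes TIE2) and Tie1, and the receptor phosphatase gene Ptprb (which encodes VE-PTP). They were chosen by symbol from the deposited table of 18825 genes. All 5 were found and all 5 passed the count filter, which left 14427 genes for testing.

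TIE2 is a receptor tyrosine kinase of endothelial cells. Angiopoietin 1, made mainly by pericytes, smooth muscle and other cells around the vessel, activates it and thereby holds endothelial junctions closed and vessels quiescent. Angiopoietin 2 is made by endothelial cells themselves, is stored in their granules, and acts as a weak or blocking ligand that loosens vessels for sprouting or leakage. TIE1 binds neither angiopoietin directly and tunes TIE2, while VE-PTP removes phosphate from TIE2. In skin wounds the balance of both ligands is known to accompany the growth and later regression of granulation tissue vessels.

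The 6 messenger RNA libraries came from full-thickness wounds on the backs of male Sprague–Dawley rats made diabetic by a diet rich in fat and sucrose followed by streptozotocin, which destroys the insulin-producing beta cells. The diabetes is thus an induced one, each library is bulk wound tissue, and the labels give neither the day of collection nor the age of the rats. The DST-MNs group held 3 wounds treated with microneedles that carried dental pulp stem cell spheroids regulated by spermidine, a polyamine, and by the growth factor TGF-β3. The control group held 3 untreated diabetic wounds, so the needle, the cells and the added factors cannot be told apart. Libraries held 12545201 to 13818544 counts. The labels call them biological replicates, without saying that each came from another rat. The p-values thus set group differences against the spread between these samples, which may not be the spread between rats.

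The tissue was checked against lists of marker genes. Summed levels of the 8 fibroblast markers were 19821 to 25642 TPM (a level scaled for gene length and library) in DST-MNs wounds and 22231 to 30463 TPM in control wounds, and the 8 core endothelial genes summed to 467 to 697 TPM in DST-MNs wounds and 582 to 694 TPM in control wounds. Keratinocyte markers, which define epidermis, summed to 241 to 3936 TPM in DST-MNs wounds and 26.5 to 194 TPM in control wounds, and sebaceous markers to 447 to 538 TPM in DST-MNs wounds and 29.5 to 48.6 TPM in control wounds. Skeletal muscle markers summed to 3560 to 5158 TPM in DST-MNs wounds and 22.0 to 5264 TPM in control wounds, where control 1 was the high one. None of the listed genes of these types was at 0 in every library. Their part in the results below was not tested. In such bulk tissue, fewer endothelial cells and less RNA per endothelial cell cannot be told apart.

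Of the 5 genes, 1, Tie1, was matched by gene ID to the RefSeq promoter windows of build GRCr8. The 250 bases before its annotated start are shown because Tie1 was the most abundant gene of the axis and because ETS factors such as ERG, which bind a core such as AGGAAG, are known to drive endothelial genes. They lie at chr5:137304982-137305231 on the minus strand, with the match of that core (in reverse complement, CTTCCT), 61 bases before the start, in capitals.
Tie1: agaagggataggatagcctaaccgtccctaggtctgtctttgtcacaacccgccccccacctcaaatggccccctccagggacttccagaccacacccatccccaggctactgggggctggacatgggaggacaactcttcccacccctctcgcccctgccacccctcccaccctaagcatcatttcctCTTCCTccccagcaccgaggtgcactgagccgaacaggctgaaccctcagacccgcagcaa
In the full window, which runs on for 50 bases after the start, AGGAAG or its reverse complement was found 1 time. Other forms of the ETS core were not searched for. AGGAAG or its reverse complement occurs in 34.5% of all 33469 windows of that length and in 8 of 13 windows of the listed endothelial markers. The forkhead core GTAAACA, or its reverse complement TGTTTAC, the kind of sequence bound by FOXO1 downstream of TIE2, was found 0 times in the Tie1 window and occurs in 3.78% of all windows. A match describes the letters only.

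None of the 5 genes passed the test between DST-MNs and control wounds, and all 5 had a log2 change below 0. Both ligands had the larger log2 changes, -0.62 for Angpt1 and -0.65 for Angpt2, and the receptors and the phosphatase lay between -0.26 and -0.23. By the quasi-likelihood test of edgeR, with p-values adjusted over all genes by the Benjamini-Hochberg method, 0 of 5 passed an adjusted p of 0.05, where 0.776% of all genes did (0.658% higher and 0.118% lower). At an unadjusted p below 0.05, 2 of 5, Angpt1 and Angpt2, were lower and 0 higher, against 6.88% of all genes lower and 9.8% higher. DESeq2 called 0 of 5 at an adjusted p of 0.05, against 7.1% of all genes. At an unadjusted p below 0.05 it had 3 of 5 lower (Angpt1, Angpt2 and Tie1), against 8.44% of all genes. A log2 change below 0 was found in 49.5% of all genes, and the median of all genes was 0.00.

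**Figure D1:**
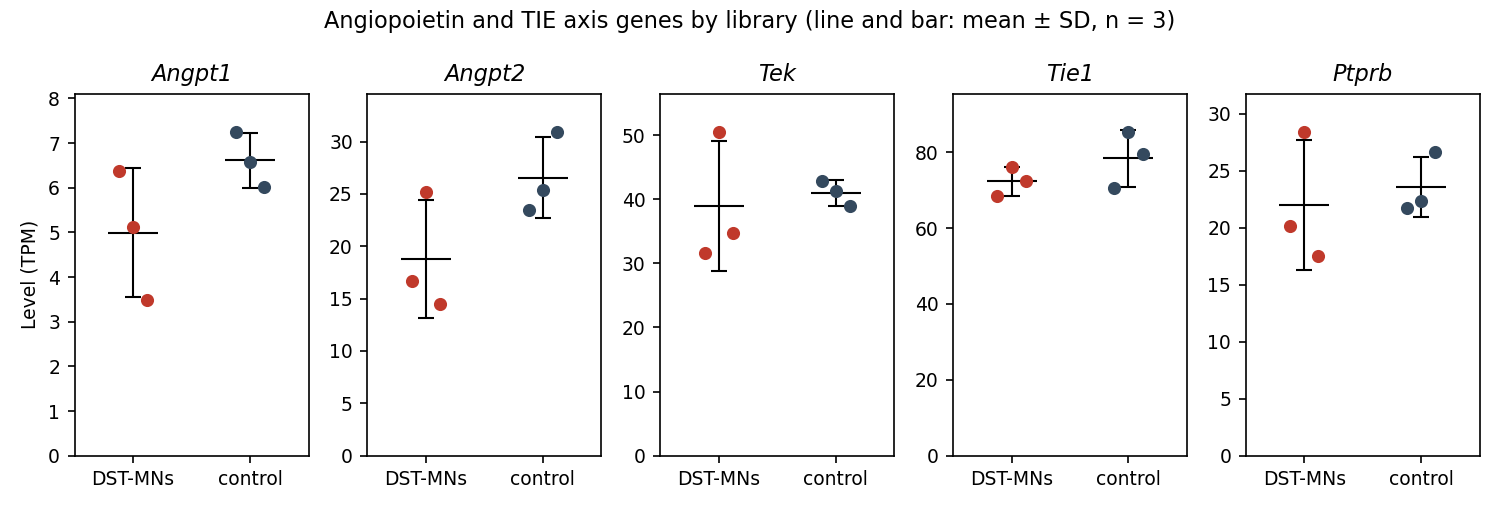
Level in TPM (vertical axes, each starting at 0) of the 5 genes in the 3 DST-MNs and the 3 control libraries; each point is a library, the long line the mean and the bar its SD. Both ligands averaged lower in DST-MNs wounds with 1 overlapping library, while Tek and Ptprb had their highest and lowest levels both within the DST-MNs group.

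Per length, the order of levels differed between the groups at 1 place. Tie1 was the highest and Tek the next in all 6 libraries, and Angpt1 the lowest in all 6. Ptprb stood above Angpt2 in 3 of 3 DST-MNs libraries, whereas Angpt2 stood above Ptprb in 3 of 3 control libraries. Of all pairs of tested genes, 23.4% had a TPM ratio without overlap between the groups. The share of pairs whose order also turned was not computed. Tie1 averaged 72.3 ± 3.78 TPM in DST-MNs wounds and 78.4 ± 7.44 TPM in control wounds (SD, n = 3 each), above every value of Tek in its group. Ptprb and Angpt2 are the neighbours whose ranges overlapped, although within a library their order was the same throughout each group. They averaged 22.0 ± 5.68 and 18.8 ± 5.67 TPM in DST-MNs wounds and 23.6 ± 2.66 and 26.6 ± 3.86 TPM in control wounds. Their ranges did not reach those of Tek above or of Angpt1 below in either group.

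Angpt1 (gene ID 89807), the activating ligand, was at 6.37, 5.12 and 3.49 TPM in DST-MNs replicates 1, 2 and 3, against 7.24, 6.57 and 6.02 TPM in control replicates 1, 2 and 3. DST-MNs 3 was the lowest of all, and DST-MNs 1 lay within the control range. The counts behind these levels were 328, 308 and 183 in DST-MNs wounds and 451, 388 and 345 in control wounds, so that the lowest had a 95% exact Poisson interval of 157 to 212, which covers counting error only. After TMM scaling the groups did not overlap, at 19.8 ± 4.74 CPM (counts scaled to library size) in DST-MNs wounds and 30.6 ± 4.03 CPM in control wounds (SD, n = 3 each). The log2 change was -0.62 (SE 0.21, 95% interval -1.13 to -0.12), with an adjusted p of 0.221 in edgeR.

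Angpt2 (89805), the context-dependent ligand that endothelial cells release, was at 16.7, 25.2 and 14.45 TPM in DST-MNs replicates 1, 2 and 3, against 23.5, 25.3 and 30.9 TPM in control replicates 1, 2 and 3. DST-MNs 1 and 3 were below every control, while DST-MNs 2 lay among the controls on this scale. Counts were 332, 490 and 287 in DST-MNs wounds and 505, 528 and 612 in control wounds. In TMM-scaled CPM the groups did not overlap, at 27.1 ± 7.66 CPM in DST-MNs wounds and 42.5 ± 4.48 CPM in control wounds (SD, n = 3 each). The log2 change was -0.65 (SE 0.21, 95% interval -1.15 to -0.15), with an adjusted p of 0.210 in edgeR. With DST-MNs 2 left out it was -0.89 with an adjusted p of 0.0790.

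Groups that do not overlap were not rare and depended on the scale. In TMM-scaled CPM, 3 of 5 genes (Angpt1, Angpt2 and Tie1) were lower without overlap, against 10% of all genes. In TPM, 0 of 5 were, against 3.08% of all genes, and 21.1% of all genes were higher without overlap, against 12.9% in TMM-scaled CPM. The median log2 change of all genes was 0.12 in the test on log2(TPM + 1) and 0.00 with TMM factors, and by that test none of the 5 reached an unadjusted p of 0.05.

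The ratio of Angpt2 to Angpt1, a common index of ligand balance, overlapped between the groups. It was 2.62, 4.92 and 4.14 in DST-MNs replicates 1, 2 and 3, against 3.24, 3.86 and 5.13 in control replicates 1, 2 and 3 (TPM over TPM within a library). The lowest ratio was in DST-MNs 1 and the highest in control 3, with the other 4 libraries between them. On the log2 scale the ratio averaged 1.91 ± 0.47 in DST-MNs wounds and 2.00 ± 0.33 in control wounds (SD, n = 3 each), a difference of -0.09 (exact permutation test, two-sided, p = 0.9; 1 after Benjamini-Hochberg adjustment over 8 such comparisons). With 3 against 3 libraries such a test cannot go below 0.1. The difference was 0.17 without DST-MNs replicate 1 and 0.09 without control replicate 3, so its sign rested on single libraries.

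Tek (89804), the receptor of both ligands, was at 31.7, 50.4 and 34.7 TPM in DST-MNs replicates 1, 2 and 3, against 42.8, 41.2 and 38.9 TPM in control replicates 1, 2 and 3. In TPM, DST-MNs 2 had the highest level of the 6 libraries and the other DST-MNs libraries the 2 lowest. In TMM-scaled CPM control 1 was highest, at 135 against 134 in DST-MNs 2, and the groups overlapped there too. The log2 change was -0.23 (SE 0.18, 95% interval -0.65 to 0.18, edgeR adjusted p = 0.544). Without DST-MNs replicate 2 it was -0.42 (adjusted p = 0.233), and without DST-MNs replicate 1 it was -0.12. The core endothelial genes summed to 467, 697 and 518 TPM in DST-MNs 1, 2 and 3, so DST-MNs 2 was also the library of its group with the highest sum, and the part of this in the levels of Tek and Ptprb was not tested.

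Tie1 (89806), the receptor that pairs with TIE2, was at 68.5, 76.1 and 72.3 TPM in DST-MNs replicates 1, 2 and 3, against 70.5, 85.2 and 79.4 TPM in control replicates 1, 2 and 3. Relative to its mean, it varied least of the 5 genes within the DST-MNs group. In TMM-scaled CPM it averaged 188 ± 17.6 in DST-MNs wounds and 225 ± 19.2 in control wounds (SD, n = 3 each), without overlap. The log2 change was -0.26 (SE 0.13, 95% interval -0.57 to 0.05, edgeR adjusted p = 0.368). The Tie1 to Tek ratio was 2.16, 1.51 and 2.08 in DST-MNs wounds and 1.65, 2.07 and 2.04 in control wounds, a log2 difference of -0.01 (exact permutation p = 1). DST-MNs 2 and control 1 had the lowest ratios of their groups, and the sign turned without DST-MNs replicate 2 (0.15), control replicate 2 (0.05) or control replicate 3 (0.04).

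Ptprb (314843), the phosphatase that acts on TIE2 and on the junction protein VE-cadherin, was at 20.1, 28.4 and 17.5 TPM in DST-MNs replicates 1, 2 and 3, against 21.7, 22.4 and 26.6 TPM in control replicates 1, 2 and 3. In TPM, as for Tek, the highest of the 6 libraries was DST-MNs 2 and the 2 lowest were the other DST-MNs wounds. The log2 change was -0.25 (SE 0.19, 95% interval -0.69 to 0.20, edgeR adjusted p = 0.548), and became -0.45, -0.16 or -0.14 with DST-MNs 2, 1 or 3 left out. The Ptprb to Tek ratio was 0.636, 0.563 and 0.503 in DST-MNs wounds and 0.507, 0.543 and 0.685 in control wounds, with a log2 difference of -0.02 (exact permutation p = 0.9). Its sign turned without DST-MNs replicate 3 (0.06) or control replicate 3 (0.11). Without DST-MNs replicate 2, 4 of 5 genes, all but Tie1, were lower at an unadjusted p below 0.05, against 6.54% of all genes in that fit, and 0 of 5 passed the adjusted threshold. That was the largest such count with 1 library left out. It was 1 without DST-MNs 1, DST-MNs 3, control 1 or control 3, and 2 without control 2.

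**Figure D2:**
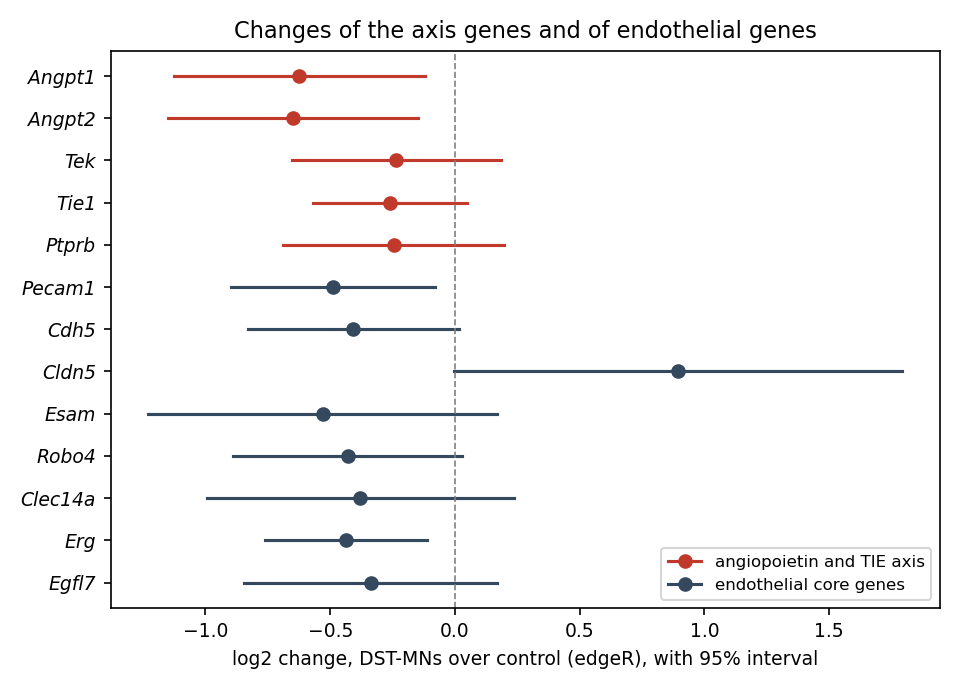
Log2 change, DST-MNs over control, with its 95% interval (horizontal axis) for the 5 axis genes and the 8 core endothelial genes, from edgeR's quasi-likelihood fit. The intervals of Angpt1 and Angpt2 lie below 0, those of Tek, Tie1 and Ptprb include it, and 7 of the 8 endothelial genes have values below 0, with Cldn5 at 0.89.

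Of the 10 ratios between pairs of these genes, 2 did not overlap between the groups, a share no larger than the 23.4% of all pairs of tested genes, so the count says nothing particular about the axis. This look at the pairs was chosen after the values were seen and carries no test. The 2 ratios were those of Angpt2 to Ptprb and to Tek, both lower in DST-MNs wounds, and the other 8 overlapped. Angpt2 to Ptprb was 0.829, 0.887 and 0.826 in DST-MNs replicates 1, 2 and 3, against 1.08, 1.13 and 1.16 in control replicates 1, 2 and 3. The 3 values of each group lay close together and apart from the other group. Angpt2 to Tek was 0.527, 0.499 and 0.416 in DST-MNs wounds and 0.548, 0.615 and 0.794 in control wounds, where DST-MNs 1 and control 1 nearly touched. The log2 differences were -0.41 for Angpt2 to Ptprb and -0.43 for Angpt2 to Tek. That of Angpt2 to Tie1 was -0.42, with 0.331 in DST-MNs 2 above 0.297 in control 2. Among Tek, Tie1 and Ptprb themselves, the log2 differences lay between -0.02 and -0.01.

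**Figure D3:**
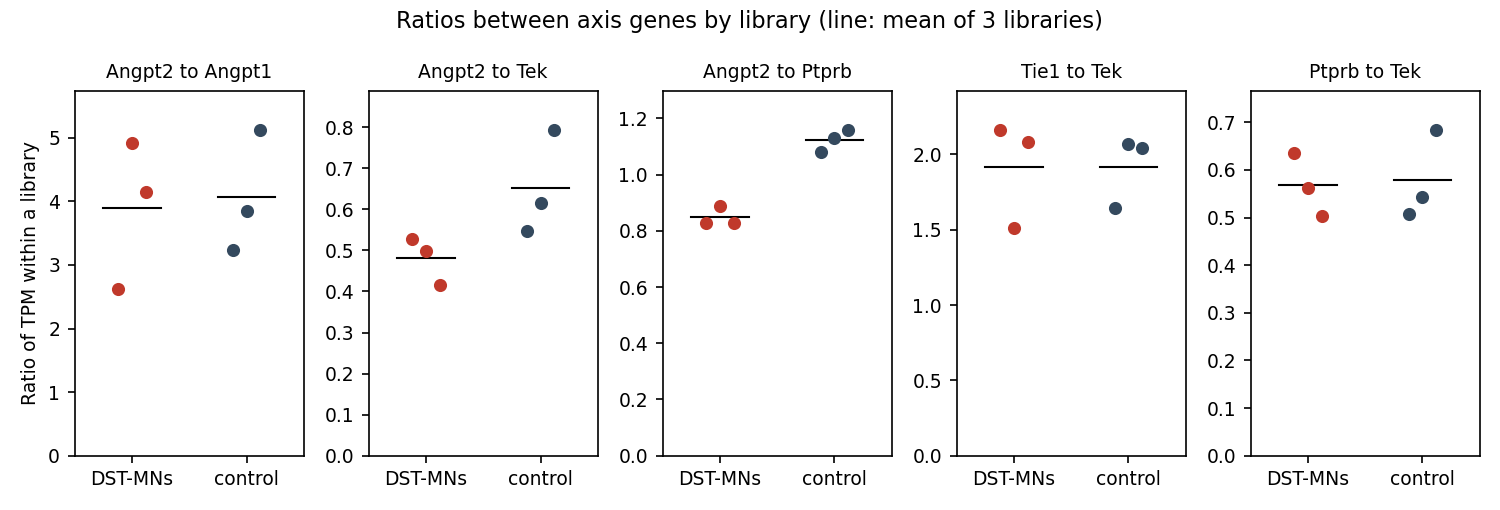
Ratio of TPM within each library (vertical axes, each starting at 0) for 5 pairs of axis genes, with 3 DST-MNs and 3 control libraries; points are libraries and lines are means of the ratios. Angpt2 to Ptprb is at most 0.887 in the DST-MNs libraries and at least 1.08 in the controls, while Angpt2 to Angpt1, Tie1 to Tek and Ptprb to Tek overlap; of all pairs of tested genes, 23.4% do not.

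The same genes were then set against the endothelium of their own library, as log2 TPM minus the mean log2 TPM of 8 core endothelial genes (Pecam1, Cdh5, Cldn5, Esam, Robo4, Clec14a, Erg and Egfl7). Angpt2 lay at -1.47, -1.47 and -1.85 in DST-MNs replicates 1, 2 and 3, against -1.26, -1.35 and -1.03 in control replicates 1, 2 and 3, without overlap. The difference was -0.38 (exact permutation test, two-sided, p = 0.1, the smallest that 3 against 3 libraries can give; 0.8 adjusted over the 8 comparisons). It depended on 1 core gene, the tight junction claudin Cldn5, which was at 33.6, 59.9 and 80.1 TPM in DST-MNs wounds and 34.9, 28.5 and 21.8 TPM in control wounds. Without Cldn5, an alternative chosen after seeing the data, the difference was -0.23 and the groups overlapped (exact permutation p = 0.2). Against Pecam1 and Cdh5 alone it was -0.22, and against the median of all 20 listed endothelial markers -0.26, again with overlap. With TMM-scaled log2 CPM in place of TPM and all 8 core genes, the difference was -0.38, without overlap (exact permutation p = 0.1).

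Tek, Tie1 and Ptprb lay near the control groups on this scale, with differences of 0.04, 0.03 and 0.02 (exact permutation p = 0.7, 0.9 and 0.9). Against the core without Cldn5 these were 0.20, 0.19 and 0.18, with overlap in each. Their signs turned with single libraries left out, for Tek without control 3 (-0.013), for Tie1 without DST-MNs 1 (-0.057) or DST-MNs 3 (-0.0062), and for Ptprb without DST-MNs 1 (-0.057), DST-MNs 2 (-0.0080) or control 2 (-0.051). Angpt1, which comes mainly from cells around the vessel, lay at -2.86, -3.77 and -3.90 in DST-MNs wounds and -2.96, -3.30 and -3.38 in control wounds. DST-MNs 1 was the highest of all 6 and the other DST-MNs wounds the 2 lowest, with a difference of -0.30 (exact permutation p = 0.5), which became -0.62 with DST-MNs 1 left out, -0.10 with DST-MNs 3 left out and -0.14 without Cldn5.

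**Figure D4:**
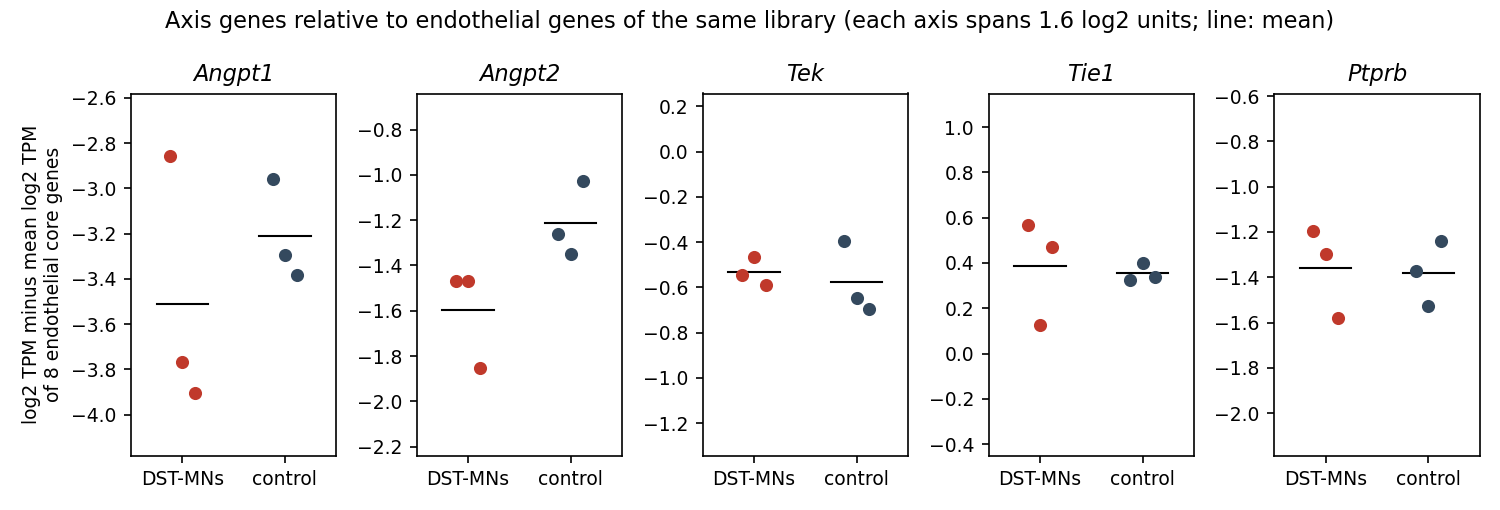
Log2 TPM of each axis gene minus the mean log2 TPM of the 8 core endothelial genes of the same library (vertical axes, each spanning the same number of log2 units), for 3 DST-MNs and 3 control libraries; points are libraries and lines are means. Angpt2 is the gene whose groups do not overlap, from -1.85 to -1.47 in DST-MNs wounds and from -1.35 to -1.03 in control wounds, an order that was lost without Cldn5.

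Endothelial markers other than the axis genes were mostly on the low side in DST-MNs wounds, and none passed the test. Of 20 listed, 18 had a log2 change below 0, against 49.5% of all genes. At an unadjusted p below 0.05, 7 were lower and 0 higher, against 6.88% of all genes lower and 9.8% higher, and the median was -0.42, against 0.00 over all genes. Vwf, the clotting factor stored with angiopoietin 2 in endothelial granules, was at 18.6, 19.3 and 14.7 TPM in DST-MNs wounds and 23.3, 24.5 and 29.2 TPM in control wounds (log2 change -0.70 with SE 0.12, edgeR adjusted p = 0.0723). Ecscr, an endothelial surface protein, and Flt1, a VEGF receptor, had log2 changes of -0.98 and -0.91. The 8 core genes had a median of -0.42, with 7 below 0. Tek, Tie1 and Ptprb, at -0.23, -0.26 and -0.25, lay nearer to 0 than that median, and both ligands lay farther from 0.

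Sprouting and activation genes, among which Angpt2 is usually counted, had larger values. Of 12 tip cell genes, which mark the leading cells of sprouts, 11 had a log2 change below 0 (49.5% of all genes), 8 were lower at an unadjusted p below 0.05 (6.88% of all genes), and 1 was lower past the adjusted threshold (0.118% of all genes). That gene was Adm, the vasodilator adrenomedullin, which fell to 12.2, 16.2 and 11.8 TPM in DST-MNs wounds, against 36.9, 51.0 and 32.0 TPM in control wounds (log2 change -1.74 with SE 0.23, edgeR adjusted p = 0.0311). Esm1, a secreted proteoglycan of tip cells, was at 2.16, 3.12 and 4.49 TPM in DST-MNs wounds and 7.33, 9.79 and 12.5 TPM in control wounds (log2 change -1.71, adjusted p = 0.108). Every DST-MNs library lay below every control for both genes. The median of the list was -0.85. Of 10 endothelial activation genes, 9 were below 0, 5 were lower at an unadjusted p below 0.05 and the median was -0.82, against the same shares of all genes. In that list 1 gene, Edn1, the vasoconstrictor endothelin 1, passed, at 6.31 ± 1.33 TPM in DST-MNs wounds and 18.7 ± 2.45 TPM in control wounds (SD, n = 3 each; log2 change -1.70, SE 0.25, adjusted p = 0.0456). Many of these genes are also made by other cells, so the lists are not specific to endothelium. These and the other gene lists were chosen with earlier results of these data known, so their counts are a description. Of 14 junction and quiescence genes 0 passed, 12 were below 0 (49.5% of all genes), and the median was -0.29. There the epithelial and endothelial Ocln (1.58) was higher and S1pr1 and Klf4 (-0.67 and -0.61) lower at an unadjusted p below 0.05 in edgeR. The shares of all genes at that p were 9.8% higher and 6.88% lower.

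Among 8 other ligands and regulators of the axis, 7 were tested and 0 passed. A log2 change below 0 was found for 6 of the 7 (49.5% of all genes), with 3 lower at an unadjusted p below 0.05 (6.88% of all genes) and a median of -0.51. Lect2, known in mice as a TIE1 ligand, was not tested, at 0.19 to 1.11 TPM in DST-MNs wounds and 0.35 to 0.53 TPM in control wounds. Angpt4, a further TIE2 ligand, was at 9.46, 10.4 and 12.7 TPM in DST-MNs wounds and 12.9, 19.9 and 21.2 TPM in control wounds (log2 change -0.84 with SE 0.22, edgeR adjusted p = 0.152). Svep1, a matrix protein known to bind TIE1, was at 14.1, 17.1 and 15.4 TPM in DST-MNs wounds and 20.6, 20.3 and 19.8 TPM in control wounds (log2 change -0.54, SE 0.13, adjusted p = 0.132). For both, each DST-MNs library was below each control. Itga5, an integrin subunit through which angiopoietins can also bind cells, was at 54.7 ± 1.79 TPM in DST-MNs wounds and 79.9 ± 16.1 TPM in control wounds (SD, n = 3 each; log2 change -0.69, adjusted p = 0.136).

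Downstream, 0 of 29 adaptors and effectors passed, and the median was -0.09. A log2 change below 0 was found for 20 (49.5% of all genes). At an unadjusted p below 0.05 in edgeR, 3 were higher and 3 lower, against 9.8% of all genes higher and 6.88% lower. Nos3, the endothelial nitric oxide synthase that AKT activates, was at 16.6, 19.7 and 15.1 TPM in DST-MNs wounds and 22.3, 27.1 and 24.7 TPM in control wounds (log2 change -0.68 with SE 0.13, edgeR adjusted p = 0.0885). Dok2, a docking protein of TIE2 that is abundant in leukocytes as well, had a log2 change of 0.42, and the adaptor Grb7, which epithelia express, one of 3.72, with 1.54 to 4.12 TPM in DST-MNs wounds and 0.02 to 0.24 TPM in control wounds. FOXO1, which TIE2 signalling keeps out of the nucleus, drives Angpt2 among other genes. Of 12 FOXO target genes 0 passed, 6 were above and 6 below 0 (49.5% of all genes below), and the median was -0.01. Those with the smallest p were Klf9 at -0.86, Irs2 at -0.82 and Sesn1 at 0.44. Of 12 hypoxia genes and inducers of Angpt2, 0 passed, 7 were below 0 (49.5% of all genes) and 5 above, and the median was -0.03. Hif1a at -1.08, Epas1 at -0.65 and Ets1 at -0.51 were named for their smallest p. These 3 were lower at an unadjusted p below 0.05 in edgeR (6.88% of all genes), and 0 were higher.

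Markers of the cells that make or could dilute these transcripts were summarised in the same way, without a count of cells. Mural cell markers, for the pericytes and smooth muscle that supply angiopoietin 1, summed to 1538 to 2273 TPM in DST-MNs wounds and 1707 to 2238 TPM in control wounds, with 0 of 13 passed and a median of -0.06. Of these 13, 6 were above and 7 below 0, and Mcam, at -0.73, had the smallest p (adjusted p = 0.164, edgeR). Fibroblast markers had a median of -0.55 with 0 of 8 passed, and Pdgfra had a log2 change of -0.77 (adjusted p = 0.0723, edgeR). Platelet and megakaryocyte markers, from cells that carry angiopoietin 1, had a median of -0.07 over 5 tested genes. Of 10 macrophage markers, 4 were above and 6 below 0, and the median was -0.28. Only Cd163 was lower past the threshold (-1.75), against 0.118% of all genes. The summed levels of these markers overlapped, at 4298 to 7034 TPM in DST-MNs wounds and 4414 to 5579 TPM in control wounds. Lymphatic markers, which belong to vessels that also carry TIE receptors, had a median of 0.25 over 8 genes, with Pdpn at -0.80, Lyve1 at -1.53 and Mmrn1 at 2.22. Levels were low for Lyve1, at 1.17 to 2.15 TPM in DST-MNs wounds and 2.22 to 8.26 TPM in control wounds. They were also low for Mmrn1, at 1.2 to 4.65 TPM in DST-MNs wounds and 0.31 to 1.36 TPM in control wounds, with overlap. Medians were 3.73 for keratinocytes, 5.13 for sebaceous cells with 5 of 8 higher past the threshold (0.658% of all genes), and 3.78 over 4 genes for hair follicles. The hair follicle markers were high in 1 library, with sums of 962, 7.60 and 16.5 TPM in DST-MNs 1, 2 and 3, against 12.8, 1.74 and 2.94 TPM in control 1, 2 and 3. They were 0.94 for skeletal muscle, 1.04 for adipocytes over 7 genes and 1.17 for Schwann cells, with none passed in these lists. The parts of these cell types in the values of the axis genes were not tested.

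Across the 6 libraries, genes with the most similar profile were sought by Pearson's correlation of log2 CPM among 12514 genes, as a description. Nearest to Angpt2 were Zfp69, Dsel and Tbc1d7 (r from 0.993 to 0.996), to Angpt1 Bcap29, Mpp6 and Gfod2 (0.988 to 0.993), and to Tek Sema3g, Get1 and Rab20 (0.991 to 0.992). Nearest to Tie1 were Dnajc1, Zyx and Gpr153 (0.986 to 0.990), and to Ptprb Pcdhb3, Gnaq and Laptm4b (0.985 to 0.987). With 6 libraries in 2 groups, between 29 and 79 genes had r above 0.95 with each axis gene. Among the axis genes, Angpt2 and Ptprb were closest (r = 0.931) and Angpt1 and Tie1 farthest (0.423).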

How the data were processed

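The authors deposited 1 table with 4 values per library for each gene. Estimated counts, per the file headers read counts per gene without scaling, were 90.5% to 91.4% whole, and those of the 5 genes were all whole. TPM values, per the file headers, are scaled by gene length and library. FPKM values, per the file headers scaled by length and fragments, served as an alternative. The normalised counts deposited by the authors, a signal made with 1 factor per library, were not used. Reads were handled against mRatBN7.2, per the submitters' processing notes; aligner and counter: not given in the sources used here. Columns were matched to libraries by library name.

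Counts were rounded, filtered with filterByExpr at a count minimum of 10, given TMM factors and compared in edgeR 4.0.16 under R 4.3.3 (glmQLFit, glmQLFTest). A gene passed at a Benjamini-Hochberg adjusted p under 0.05. Biological variation between libraries came to a coefficient of 30.2%. An SE is the log2 change over the square root of F, and intervals include the spread between libraries. The test was checked on simulated data. Ratios used deposited TPM and the exact permutation test of scipy 1.17.1. Alternatives used DESeq2 1.42.0, limma 3.58.1, other scaling and filters, a replicate block, other units and denominators, and each library left out. Of 221 entries in 20 gene lists, 216 matched by symbol, 4 through RefSeq names and 1 not. Named genes were all 5 axis genes, those past the threshold or up to 3 with the smallest p per list, and the 3 nearest profiles among genes with a mean log2 CPM of at least 1. Genes and lists were chosen with earlier results of these data known.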

Additional observations from a re-analysis of the deposited data

How the results depend on the processing

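None of the 5 genes passed under any of the 15 alternatives, and their log2 changes kept their sign in all of them, total counts and TPM included. The lowest adjusted p was 0.0724, for Angpt2 with DESeq2, and the range for Angpt2 was up to 0.485. The count of all genes past the threshold was 38 with at least 10 counts in every library, 1018 with DESeq2's Wald test and 14 to 402 with 1 library left out (23, 34 and 14 without DST-MNs 1, 2 and 3; 402, 34 and 53 without control 1, 2 and 3), against 112, of which 84.8% were higher; the higher share was 61.5% with DESeq2, 73.7% with at least 10 counts in every library and 94.1% on log2(TPM + 1). With 1 library left out, log2 changes ran from -0.74 to -0.43 for Angpt1, -0.89 to -0.53 for Angpt2, -0.42 to -0.12 for Tek, -0.31 to -0.19 for Tie1 and -0.45 to -0.14 for Ptprb. The log2 difference of the Angpt2 to Angpt1 ratio ran from -0.28 to 0.17, of Tie1 to Tek from -0.12 to 0.15 and of Ptprb to Tek from -0.11 to 0.11. Relative to endothelial core genes it ran from -0.013 to 0.14 for Tek, -0.057 to 0.16 for Tie1, -0.057 to 0.13 for Ptprb, -0.45 to -0.26 for Angpt2 and -0.62 to -0.10 for Angpt1; the cause of these changes of sign was not tested. With 2 against 3 libraries the exact test cannot go below 0.2. The labels do not say whether the replicate numbers pair the libraries. Deviations of same-numbered libraries correlated at -0.02, 0.10 and 0.11 (r across genes, which are not independent replicates). Those of different-numbered libraries correlated at -0.22 to 0.10. With so few libraries, these overlapping values cannot decide whether the numbers are pairs. With the replicate block 123 genes passed and 0 of the 5, with log2 changes of -0.65 for Angpt1 and -0.68 for Angpt2, and the sign-flip test of the ratios, which cannot go below 0.25, gave 0.25 for Angpt2 relative to endothelial genes. Angpt1 rests on 183 to 451 counts per library and Angpt2 on 287 to 612, with an SE of 0.21 for each.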
